A study of Homo sapiens with 6 samples.

Results

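The genes described here are 60 protein-coding genes of chromosome 21, read in a table of RNA levels from SiHa cells. SiHa is an established line from a human squamous carcinoma of the cervix and carries papillomavirus sequence. Members were found by symbol among the gene names of each row, and where a symbol stood on several rows, as SETD4 did, the row with the highest mean was kept. They fell on 57 of the 35544 rows of the table, because 3 rows hold a pair of members each (IFNAR2 with IL10RB, MORC3 with CHAF1B, and DONSON with CRYZL1). Members were selected on position and, for the test, on their FPKM level: a level of at least 1 FPKM (fragments scaled for the length of the transcript and the depth of the library) in at least 3 of the 6 libraries let a row into the test, and 56 member rows with 59 genes passed. TIAM1, an exchange factor for the small GTPase Rac, missed it and is given by its values alone. BACE2 passed only through the vector libraries, where it is high, so it had to differ, and it is described by its values with no p. Of the 57 member rows, 7 join several gene names, so their values cannot be given to 1 gene.

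Cells of the vector group were transfected with a vector plasmid, and cells of the circ_0005358 group with a plasmid carrying the circular RNA hsa_circ_0005358. The name of this RNA is written with different digits in parts of the labels, and 1 RNA was assumed. Both groups were collected 72 h later, and each has 3 libraries of polyA RNA. Whether the 3 libraries of a group are separate cultures is not stated in the labels, and the p-values below rest on a library-to-library spread that may be technical. The comparison asks which mRNAs differ between SiHa cells with and without the added circular RNA, whose own level was not analysed here.

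Chromosome 21 is the smallest human autosome, and an extra copy of it causes Down syndrome. Its long arm holds genes that are often studied together for that reason: APP, the precursor of amyloid beta, SOD1, the cytosolic superoxide dismutase, the kinase DYRK1A with the calcineurin inhibitor RCAN1, the transcription factors RUNX1 and ETS2, and a cluster of cytokine receptor genes that bind interferons and interleukin-10 family ligands. The others here serve processes that every cell runs, among them glycolysis, purine synthesis, ribosome assembly, endocytosis and the ubiquitin and SUMO systems. The copy number of chromosome 21 in these cells was not analysed here.

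The libraries were similar in depth except for circ_0005358 replicate 2, whose depth, estimated from the value of 1 fragment, was 71.1% of the deepest library against 93.8% to 100% for the other 5. FPKM summed to between 138864 and 145278 per library, and between 23227 and 27803 rows were above 0, vector replicate 3 having the most. Most markers of the labelled cell type were present but moved with the groups. The summed level of 10 cervical squamous markers was 1310 to 1380 FPKM with vector and 637 to 726 FPKM with circ_0005358. Most of it came from KRT17, KRT7, KRT8 and KRT18. Of the 8 tested, 7 were below 0 and 6 fell past the threshold, where 4.96% of all tested rows fell. TP63, at most 0.254 FPKM, and SFN, above 0 only in vector replicate 2 (3.28 FPKM), missed the filter. KRT5 shares its row with KRT6A, and KRT19 with KRT9, KRT14 and KRT16, so those values cannot be given to 1 gene. The 5 fibroblast markers summed to 9.10 to 12.4 FPKM with vector and 3.60 to 4.12 FPKM with circ_0005358. Most of it came from LUM, with means of 7.47 FPKM with vector and 1.43 FPKM with circ_0005358. The rest was mainly a row that joins PDGFRA with FIP1L1 (2.18 and 2.01 FPKM). COL1A1, COL1A2 and DCN were at most 0.795 FPKM in any library, and of these only DCN was higher with circ_0005358 (0.156 and 0.205 FPKM). Leukocyte markers summed to 52.6 to 69.7 FPKM over all libraries, nearly all of it from CD14 and from a row that joins CD68 with SENP3 and the translation factor gene EIF4A1 and so cannot be given to CD68, while PTPRC, which defines leukocytes, was at most 0.0605 FPKM. Endothelial, erythroid and neural markers each summed to less than 1 FPKM in every library. The part of these markers in the results below was not tested, and in bulk RNA fewer cells of a type and less RNA per cell cannot be told apart.

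As a block, chromosome 21 genes stood higher with circ_0005358. The median log2 fold change (circ_0005358 over vector, on the log2(FPKM + 1) scale) was 0.21 over the 56 member rows and 0.02 over all 10295 tested rows. It was above 0 in 45 member rows and below 0 in 11, which is 80.4% above 0, against 53.0% of all tested rows. In the fit over all rows, 10 member rows rose (17.9%; 6.41% of all tested rows did). The only row past the threshold below 0 was BACE2 (1.79%; 4.96% of all), whose direction the filter on low values fixed, so nothing is read from it. With BACE2, 11 of the 56 member rows were past the threshold, with 11.4% of all tested rows called. The 10 that rose were PFKL, SYNJ1, TMEM50B, ITSN1, NRIP1, HLCS, CBR1, PWP2, PDXK and GART. The members and the question of a block were chosen with results of these data known, so these counts and medians are a description. The number of calls rested on few libraries: of the members 3, 4 and 5 were called without vector replicates 1, 2 and 3, and 2 without circ_0005358 replicate 3. Over all rows, the 1171 calls dropped to between 485 and 761 when any of the 6 libraries was left out. The member median moved less, between 0.20 and 0.22.

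The higher level was seen in each library of the circ_0005358 group. Measured against the mean of the vector libraries, the member median was 0.21, 0.21 and 0.27 in circ_0005358 replicates 1 to 3 and -0.02, -0.02 and 0.04 in vector replicates 1 to 3. The medians of the groups did not overlap, and those of all tested rows lay between -0.0062 and 0.0395 in the 6 libraries. Of the 56 rows, 43, 41 and 46 stood above the vector mean in the circ_0005358 libraries, against 22, 23 and 37 in the vector libraries. The vector libraries make up the mean they were measured against, so their medians and counts are drawn toward it. Vector replicate 3 was the highest of its group on both measures. Every circ_0005358 library was above every vector library in 26 member rows (46.4%, against 19.8% of all tested rows). Every one was below in 3, BTG3, IFNAR1 and BACE2 (5.36%, against 15.9% of all). The filter on low values fixed this for BACE2, so nothing is read from its place in the count.

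**Figure D1:**
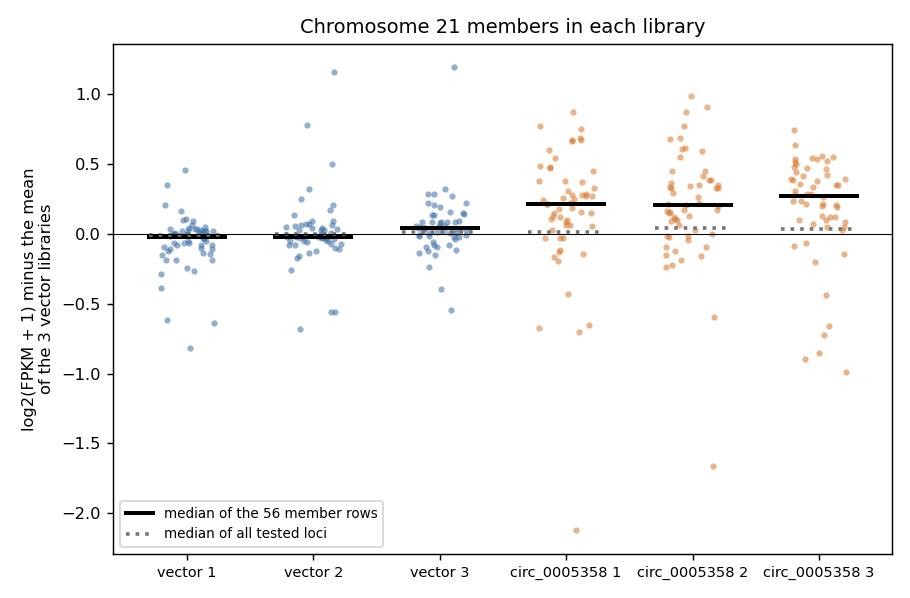
Each point is 1 of the 56 member rows in 1 library, as log2(FPKM + 1) minus the mean of the 3 vector libraries, with libraries along the horizontal axis; the black bar is the median of the member rows and the dotted grey bar the median of all tested rows. The black bars sit at 0.21, 0.21 and 0.27 in the circ_0005358 libraries and between -0.02 and 0.04 in the vector libraries, while the grey bars stay near 0 in all 6.

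Base composition and level, properties that could set a block apart, were compared as values. The longest transcripts of the member rows had a median GC content of 47.2%, and those of all tested rows with a known transcript 47.6%. All tested rows were put in 5 bins of equal size by GC content, and the median log2 fold change of all rows went from -0.03 in the lowest bin to 0.09 in the highest. The member medians in the same bins were 0.19, 0.05, 0.17, 0.32 and 0.36, on 12, 9, 18, 12 and 5 rows. When each member was taken less the median of all rows in its GC bin, the member median was 0.21, and with 5 bins of mean level it was 0.18. Members were more highly expressed than most rows, with a median level of 10.9 FPKM against 5.87 FPKM.

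Along the chromosome, positive fold changes were found from the first member to the last. By 4 stretches in order of position, the median was 0.12 from NRIP1 to SOD1 (10 tested rows, 1 rose), 0.23 from SCAF4 to RUNX1 (15 rows, 4 rose), 0.11 from SETD4 to BACE2 (13 rows, 2 rose, BACE2 aside) and 0.32 from C2CD2 to PRMT2 (18 rows, 3 rose). The third stretch had 11 of its 13 rows above 0, but its median depended on the choice of rows and libraries, at 0.19 with a level of at least 5 FPKM required and at 0.18 and 0.17 without circ_0005358 replicates 1 and 2. Of all tested rows 6.41% rose, and the 1 of 10 rows from NRIP1 to SOD1 was near that share. The counts per stretch are small and no tests were made between stretches, so nothing is read from these counts. The plot of fold changes in order of position shows the members among the other tested rows of the chromosome.

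**Figure D2:**
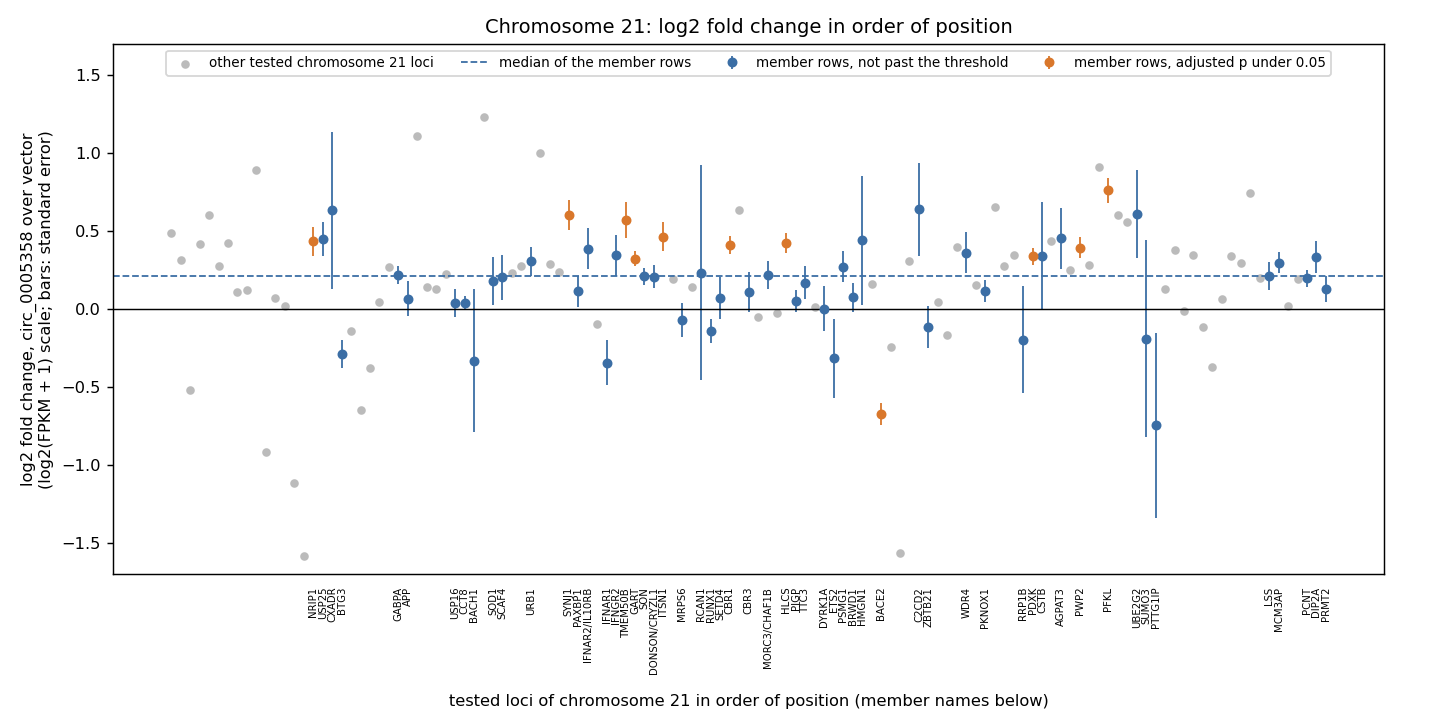
Tested chromosome 21 rows in order of position (horizontal axis) against log2 fold change of circ_0005358 over vector on the log2(FPKM + 1) scale; members are coloured points with standard error bars, other rows are grey, and the dashed line is the member median of 0.21. Member points lie above 0 in 45 of 56 rows, spread over the whole axis, and BACE2, whose direction the filter on low values fixed, is the only one past the threshold below 0.

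The members at the ends of the stretches show how far neighbours could differ. NRIP1 rose and is described with the transcription factors. SOD1, which turns superoxide into hydrogen peroxide, stood at 65.8, 96.1 and 82.9 FPKM with vector, against 85.8, 102 and 88.0 FPKM with circ_0005358, and the groups overlapped (log2 fold change 0.18, limma adjusted p = 0.513). SCAF4, which guards against early transcript termination, stood at 10.5, 9.94 and 13.8 FPKM with vector, against 11.8, 13.2 and 14.7 FPKM with circ_0005358. RUNX1, a transcription factor of blood and epithelial cells, went the other way, at 2.22, 2.58 and 2.62 FPKM with vector and 2.17, 2.26 and 2.02 FPKM with circ_0005358. Its groups overlapped by 1 library and its log2 fold change of -0.14 missed the threshold (adjusted p = 0.296). SETD4, a methyltransferase, had overlapping groups at 1.995, 1.67 and 2.30 FPKM with vector and 2.31, 1.67 and 2.46 FPKM with circ_0005358. PRMT2, an arginine methyltransferase at the far end of the chromosome, stood at 5.32, 5.52 and 6.42 FPKM and at 6.21, 6.20 and 6.72 FPKM. Both had small differences (0.07 and 0.13 on the log2 scale) that missed the threshold.

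Of 10 rows for metabolism and redox chemistry 5 rose, where 6.41% of all tested rows did, and all 10 were above 0, as were 53.0% of all rows (median 0.33). Roles were not tested against each other. They were PFKL, CBR1, HLCS, PDXK and GART. PFKL, the liver type of phosphofructokinase and a control point of glycolysis, was at 9.99, 10.5 and 11.4 FPKM with vector, against 17.4, 20.3 and 18.5 FPKM with circ_0005358. All circ_0005358 libraries were high and the groups were far apart, with means of 10.6 ± 0.697 and 18.7 ± 1.46 FPKM (SD, n = 3 each), a ratio of 1.76. Its log2 fold change of 0.76 had a standard error of 0.0806 (limma, adjusted p = 0.00501). PFKL (ENSG00000141959; chromosome 21, 44300051 to 44327376, plus strand, GRCh38) kept its call in all 17 other settings run, with adjusted p-values from 0.00347 to 0.0486.

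CBR1, a carbonyl reductase that reduces ketones, quinones and some prostaglandins, was at 22.9, 21.3 and 22.3 FPKM with vector and 31.5, 28.6 and 29.5 FPKM with circ_0005358. The groups did not overlap, and the log2 fold change was 0.41 (standard error 0.0592, limma adjusted p = 0.0129). Without vector replicate 2 or circ_0005358 replicate 3 the adjusted p of CBR1 was 0.0571 and 0.0519. CBR1 (ENSG00000159228, chromosome 21, 36069941 to 36073166, plus strand) lies over 3226 bases of SETD4 on the other strand, introns included. Whether the counting used strand is not given in the sources used here. Reads from exons that overlap cannot then be told apart, and the overlap of exons was not measured. The close relative of CBR1, CBR3, was at 11.7, 12.1 and 13.01 FPKM with vector and 11.98, 12.1 and 16.3 FPKM with circ_0005358. Only replicate 3 of circ_0005358 was high, and CBR3 missed the threshold (log2 fold change 0.11, adjusted p = 0.632).

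The 250 bases before the RefSeq starts of PFKL and CBR1 are printed because these redox and glycolysis genes rose and each window holds a match to TGACNNNGC, the core of the antioxidant response element bound by NRF2 and by the repressor BACH1, itself a member. The match is in capitals, on the plus strand of GRCh38.p14, at chr21:44299803-44300052 for PFKL and chr21:36069774-36070023 for CBR1.
PFKL: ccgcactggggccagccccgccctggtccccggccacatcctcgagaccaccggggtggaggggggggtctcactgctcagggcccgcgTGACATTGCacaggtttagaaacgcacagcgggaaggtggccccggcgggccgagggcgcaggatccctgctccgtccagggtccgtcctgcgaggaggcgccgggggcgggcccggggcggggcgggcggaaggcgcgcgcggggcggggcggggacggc
CBR1: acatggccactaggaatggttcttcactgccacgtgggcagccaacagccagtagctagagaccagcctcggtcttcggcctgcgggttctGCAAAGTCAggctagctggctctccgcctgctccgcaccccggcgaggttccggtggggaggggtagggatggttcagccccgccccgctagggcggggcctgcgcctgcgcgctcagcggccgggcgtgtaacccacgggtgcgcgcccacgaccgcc
In PFKL the core reads in the direction of the gene, and in CBR1 it lies on the other strand. The same windows hold 6 matches (PFKL) and 2 matches (CBR1) to GGGCGGG, the GC box. The core was in 8.86% of member windows and 10.9% of all windows. The uncalled DYRK1A, ETS2, IL10RB and PSMG1 hold it too, and the called HLCS, PDXK and GART do not. A match is a description of letters, no binding was measured, and a link to the rise was not tested.

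HLCS, which attaches biotin to carboxylases, was at 4.40, 4.05 and 4.55 FPKM with vector and 5.92, 6.12 and 6.42 FPKM with circ_0005358. The groups did not overlap (log2 fold change 0.42, standard error 0.0654, limma adjusted p = 0.0158), and HLCS lost its call without vector replicate 1 (0.0616), vector replicate 2 (0.062) or circ_0005358 replicate 3 (0.0653). PDXK, the kinase that makes the active form of vitamin B6, went from 18.0, 17.7 and 18.4 FPKM to 21.9, 23.3 and 24.0 FPKM, again with no overlap. Its log2 fold change was 0.34 (standard error 0.055, limma adjusted p = 0.0189), and the adjusted p of PDXK was 0.0768, 0.0767 and 0.0566 with vector replicate 1, 2 or 3 left out, and 0.0561 and 0.0677 with circ_0005358 replicate 2 or 3 left out, and 0.0574 with no filter on low values. GART, a trifunctional enzyme of purine synthesis, was at 16.1, 15.4 and 15.5 FPKM with vector and 19.97, 20.03 and 19.6 FPKM with circ_0005358. Its log2 fold change was 0.32 (standard error 0.0475, limma adjusted p = 0.0137), and the call of GART was lost without vector replicate 2 (0.0633), vector replicate 3 (0.0534) or circ_0005358 replicate 3 (0.0529). HLCS lies on chromosome 21 from 36750888 to 36990236, PDXK from 43719094 to 43762307 and GART from 33503931 to 33543491 (GRCh38). The other 5 rows of the group, SOD1, CBR3, PIGP (an anchor synthesis subunit), AGPAT3 (an acyltransferase for phospholipids) and LSS (lanosterol synthase), had log2 fold changes from 0.05 to 0.45 and missed the threshold.

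Membrane traffic and surface members had 3 of 7 rows that rose (42.9%, against 6.41% of all tested rows) and a median log2 fold change of 0.57. SYNJ1, a lipid phosphatase that strips the coat from endocytic vesicles, was at 6.35, 7.75 and 6.29 FPKM with vector and 11.5, 10.7 and 10.3 FPKM with circ_0005358. All circ_0005358 libraries were high (log2 fold change 0.61, standard error 0.0951, limma adjusted p = 0.0169). ITSN1, an endocytic scaffold, rose from 3.54, 3.63 and 3.40 FPKM to 4.497, 5.64 and 5.66 FPKM, with circ_0005358 replicate 1 the closest to the vector libraries (log2 fold change 0.46, standard error 0.0946, limma adjusted p = 0.0367). TMEM50B, a small membrane protein, was at 7.13, 6.60 and 5.13 FPKM with vector and 9.58, 10.1 and 9.60 FPKM with circ_0005358 (log2 fold change 0.57, standard error 0.116, limma adjusted p = 0.0365). These 3 calls depended on single libraries. SYNJ1 had adjusted p-values of 0.0675 and 0.0609 with vector replicate 1 or 3 left out, and of 0.0578, 0.0561 and 0.053 for circ_0005358 replicate 1, 2 or 3. ITSN1 reached 0.112, 0.105 and 0.11 with vector replicate 1, 2 or 3 left out, and 0.0986 and 0.112 for circ_0005358 replicate 2 or 3. TMEM50B reached 0.0523 and 0.0938 with vector replicate 1 or 2 left out, and 0.0937, 0.103 and 0.106 for circ_0005358 replicate 1, 2 or 3. TMEM50B was also lost when libraries were rescaled to the same sum (0.0529) or quantile normalized (0.0528). With no filter on low values TMEM50B had 0.0982 and ITSN1 0.103.

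SYNJ1 lies on chromosome 21 from 32628759 to 32728048, TMEM50B from 33432485 to 33480011 and ITSN1 from 33642400 to 33899861 (GRCh38). Most of TMEM50B, 46864 bases with introns, overlaps IFNGR2 on the other strand, and ITSN1 and CRYZL1 overlap by 1527 bases. Reads from exons that overlap cannot be told apart, and the overlap of exons was not measured. Of the members that missed the threshold, C2CD2, a protein with a C2 domain, was at 4.55, 1.52 and 3.72 FPKM with vector and 5.45, 5.18 and 5.28 FPKM with circ_0005358. Its groups did not overlap, but vector replicate 2 was low (log2 fold change 0.64, adjusted p = 0.243). DIP2A, of the disco-interacting protein family, was at 2.47, 2.68 and 3.11 FPKM with vector and 3.34, 3.70 and 4.19 FPKM with circ_0005358, without overlap (0.34, adjusted p = 0.101). CXADR, the coxsackievirus and adenovirus receptor, and PTTG1IP had groups split by 1 library.

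**Figure D3:**
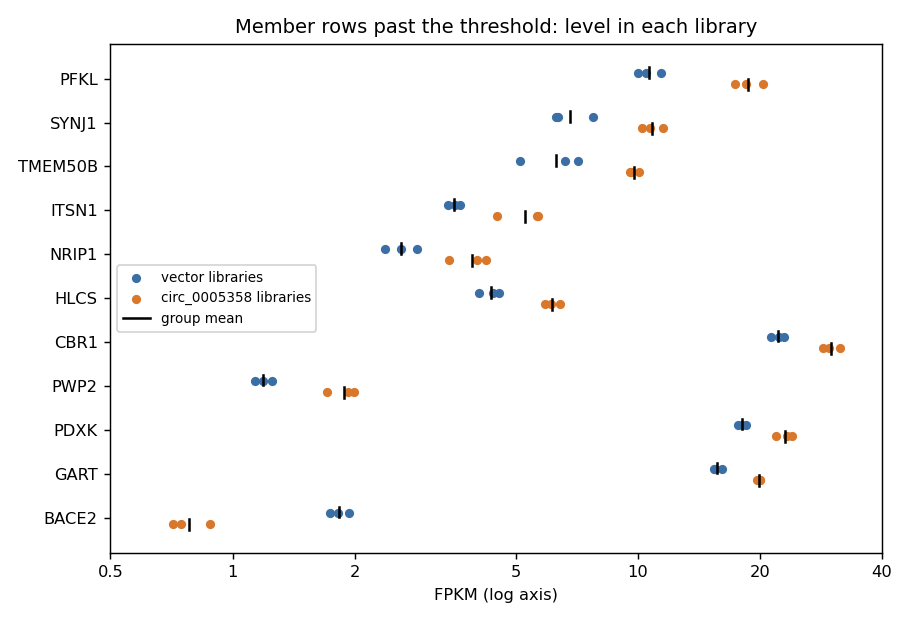
Level of the 11 member rows past the threshold in each library, in FPKM on a log axis, with 1 gene per line, blue for vector and orange for circ_0005358 libraries, and black ticks at group means. In every line the colours do not overlap. The orange points lie to the right for 10 rows, from PWP2 (1.19 to 1.88 FPKM in group means) to CBR1 (22.2 to 29.9 FPKM). They lie to the left for BACE2, whose direction the filter on low values fixed.

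Among 13 rows for transcription and chromatin, 1 rose (7.69%, near the 6.41% of all tested rows) and none fell. Of the 13, 8 were above 0 (61.5%, against 53.0% of all tested rows), and the median was 0.08. The riser was NRIP1, a corepressor of nuclear receptors, at 2.60, 2.85 and 2.38 FPKM with vector and 4.02, 3.42 and 4.23 FPKM with circ_0005358. The groups did not overlap (log2 fold change 0.44, standard error 0.0928, limma adjusted p = 0.0413). The row joins NRIP1 (chromosome 21, 14961235 to 15065936, minus strand, GRCh38) with noncoding transcripts. NRIP1 was the least stable of the calls, lost in 11 of 16 other settings: its adjusted p was 0.122, 0.0842 and 0.114 with vector replicate 1, 2 or 3 left out, with circ_0005358 replicate 1 or 3 left out it was 0.11 and 0.119, and with the same sum, quantile normalization or median centring it was 0.0569, 0.0604 and 0.0583. With no filter on low values NRIP1 had 0.121.

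Several regulators of this group did not pass. GABPA, an ETS-family activator of mitochondrial genes, had groups that did not overlap, at 20.6, 21.8 and 19.9 FPKM with vector and 24.9, 23.3 and 24.6 FPKM with circ_0005358 (log2 fold change 0.22, adjusted p = 0.0739). BTG3, an antiproliferative protein, did not overlap in the other direction, at 18.4, 20.9 and 19.3 FPKM with vector and 16.9, 16.6 and 14.1 FPKM with circ_0005358 (-0.28, adjusted p = 0.112). ETS2, another ETS factor, was level at 20.1 to 20.8 FPKM in 5 libraries and was 10.6 FPKM in circ_0005358 replicate 3. The shared row of MORC3, a nuclear body protein, and CHAF1B, a subunit of chromatin assembly factor 1, did not overlap and missed the threshold (0.22, adjusted p = 0.195). The other rows without libraries far apart were BRWD1 (0.08), PKNOX1 (0.11) and ZBTB21 (-0.11).

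RNA processing and ribosome members had 1 of 9 rows that rose (11.1%, against 6.41% of all tested rows) and a median of 0.21. PWP2, a component of the machinery that assembles the small ribosomal subunit, was at 1.19, 1.14 and 1.25 FPKM with vector and 1.71, 1.996 and 1.93 FPKM with circ_0005358. The groups did not overlap and the ratio of means was 1.577 (log2 fold change 0.39, standard error 0.0678, limma adjusted p = 0.0228), on a log2(FPKM + 1) scale that understates the change of so low a gene. PWP2 (chromosome 21, 44107290 to 44131181) lost its call when vector replicate 1, 2 or 3 was left out (0.082, 0.0879 and 0.062), and likewise for circ_0005358 replicate 2 or 3 (0.0628 and 0.0811) and with no filter on low values (0.0998). MCM3AP, which carries mRNA to the nuclear pore and shares its row with another name, was at 9.38, 8.99 and 10.1 FPKM with vector and 11.18, 12.2 and 12.4 FPKM with circ_0005358 (0.30, adjusted p = 0.052, the lowest of the 45 uncalled rows). It passed when a level of at least 5 FPKM was required (0.0427) and with median centring (0.0496).

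URB1, which helps to mature the large ribosomal subunit, was at 5.63, 5.82 and 6.35 FPKM with vector and 6.67, 8.05 and 8.04 FPKM with circ_0005358, without overlap (0.31, adjusted p = 0.0977). WDR4, a subunit of a tRNA methyltransferase, was at 5.25, 4.09 and 6.09 FPKM and at 6.40, 6.97 and 7.12 FPKM, also without overlap (0.36, adjusted p = 0.154). SON, a splicing cofactor of nuclear speckles, was at 34.3, 33.8 and 34.9 FPKM with vector and 37.6, 41.5 and 40.7 FPKM with circ_0005358 (0.21, adjusted p = 0.0726). SCAF4, PAXBP1 and MRPS6 had overlapping groups, with log2 fold changes of 0.21, 0.11 and -0.07. The row of MRPS6 also joins SLC5A3 and other names.

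Protein folding, ubiquitin and SUMO members had 0 of 8 rows past the limma threshold, which 11.4% of all tested rows passed. An unadjusted p under 0.05 was found in 2, but the share of all tested rows at that cutoff is not given here. Of the 8 rows, 7 were above 0, and the median was 0.22. USP25, a deubiquitinase, was nearest, at 5.91, 8.06 and 6.71 FPKM with vector and 9.72, 9.72 and 9.68 FPKM with circ_0005358. The groups did not overlap (0.45, adjusted p = 0.0562), and USP25 passed without vector replicate 2, its highest vector library (adjusted p = 0.0327). PSMG1, a proteasome assembly chaperone, was at 20.6 to 24.0 FPKM with vector and 24.2 to 29.5 FPKM with circ_0005358 (0.27, adjusted p = 0.155). CCT8, a subunit of the CCT chaperonin, differed little, at 111 to 116 FPKM with vector and 116 to 119 FPKM with circ_0005358 (0.04, adjusted p = 0.599). USP16, a histone deubiquitinase, had a log2 fold change of 0.04 that turned to -0.0029 with quantile normalization, and TTC3, a ubiquitin ligase, had 0.17.

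The cytokine receptor members lie next to each other and stood on both sides of 0. Of their 3 rows 0 passed the limma test, against 11.4% of all tested rows. An unadjusted p under 0.05 was found in 2, but the share of all tested rows at that cutoff is not given here. Type I interferons signal through the pair IFNAR1 and IFNAR2, interferon gamma through IFNGR2 with its partner IFNGR1, and interleukin-10 family ligands through IL10RB. The row shared by IFNAR2 and IL10RB was at 6.08, 7.86 and 7.31 FPKM with vector and 10.2, 8.04 and 10.6 FPKM with circ_0005358. The groups did not overlap, with circ_0005358 replicate 2 close to the vector libraries (0.39, adjusted p = 0.134). IFNAR1 was the other way round, at 16.0, 17.3 and 17.1 FPKM with vector and 10.3, 14.1 and 15.1 FPKM with circ_0005358 (-0.34, adjusted p = 0.199). IFNGR2 was at 13.5, 14.4 and 19.0 FPKM with vector and 20.4, 20.2 and 19.1 FPKM with circ_0005358, so vector replicate 3 nearly reached the other group (0.35, adjusted p = 0.168). Without that library IFNGR2 passed (0.49, adjusted p = 0.0306), but the library was singled out after its value was seen, so nothing is read from this. IFNGR2 shares most of its length with TMEM50B, as given above.

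Of the amyloid members, BACE2 was lower with circ_0005358 and the groups of APP overlapped. BACE2 is an aspartyl protease that cuts APP within the amyloid beta stretch, and it was at 1.74, 1.82 and 1.94 FPKM with vector and 0.745, 0.881 and 0.712 FPKM with circ_0005358. All circ_0005358 libraries were low, and the ratio of the means was 0.425. No test is given, since the filter let it in through its vector libraries alone. The gene (ENSG00000182240) spans 41167801 to 41282518 of chromosome 21, plus strand, in GRCh38. APP was at 168, 162 and 141 FPKM with vector and 144, 168 and 181 FPKM with circ_0005358, among the highest levels of the members, and the groups overlapped (0.07, adjusted p = 0.753).

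DYRK1A, a dual-specificity kinase, was at 7.78, 10.1 and 11.1 FPKM with vector and 10.01, 8.52 and 10.3 FPKM with circ_0005358. Its log2 fold change of 0.0038 (adjusted p = 0.99) turned negative with the same sum (-0.0304), quantile normalization (-0.0438) and median centring (-0.0159). TIAM1, below the filter, was at 1.11, 0.84 and 1.31 FPKM with vector and 0.263, 0.387 and 0.328 FPKM with circ_0005358, a ratio of 0.299 that was not tested. All its circ_0005358 libraries were low. The row of DONSON, a replication fork factor, and CRYZL1 also joins ATP5O and AP000311.1, so its values cannot be given to 1 gene. That row was at 14.2 to 14.7 FPKM with vector and 15.1 to 17.8 FPKM with circ_0005358 (0.21, adjusted p = 0.15). It passed without circ_0005358 replicate 2 (0.0493). PCNT, a scaffold of the centrosome, was at 10.5 to 11.04 FPKM with vector and 12.1 to 12.8 FPKM with circ_0005358 (0.20, adjusted p = 0.072).

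In 10 member rows the libraries of 1 group stood at least 2-fold apart. By limma 0 of these rows were called, against 11.4% of all tested rows (0 also at an unadjusted p under 0.05). The rows were picked for a wide spread within a group, and that spread enters the test and makes a call unlikely. Nothing is therefore read from the 0, or from where the calls lie. The share of all tested rows with such a spread was not counted. They were CXADR, BACH1, RCAN1, HMGN1, C2CD2, RRP1B, CSTB, UBE2G2, SUMO3 and PTTG1IP. Their median log2 fold change was 0.29, against 0.21 in the other 46 rows. The 11 calls, BACE2 counted, lie in those 46 rows. ETS2 was just under the limit. In RCAN1, which inhibits calcineurin, the high and low libraries were mixed between the groups, at 10.2, 10.9 and 39.0 FPKM with vector and 31.0, 27.0 and 8.70 FPKM with circ_0005358. SUMO3, a ubiquitin-like modifier, was at 41.5, 39.4 and 41.6 FPKM with vector and 62.4, 12.2 and 58.2 FPKM with circ_0005358. Its log2 fold change of -0.19 became 0.55 without circ_0005358 replicate 2, with an adjusted p of 0.0163. That library was singled out after its value was seen, so nothing is read from this p.

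PTTG1IP, a partner of securin, was low in a different library, at 105, 94.5 and 109 FPKM with vector and 22.8, 99.6 and 98.4 FPKM with circ_0005358. CSTB, an inhibitor of cathepsins, was at 9.30, 9.45 and 10.3 FPKM with vector and 6.93, 19.1 and 14.6 FPKM with circ_0005358, and without circ_0005358 replicate 1 its log2 fold change was 0.73 (adjusted p = 0.0496). RRP1B, a nucleolar protein, was at 20.9 to 25.9 FPKM in 5 libraries and at 10.5 FPKM in circ_0005358 replicate 3, and its log2 fold change of -0.20 was 0.20 without it. HMGN1, a nucleosome-binding protein, was high in replicate 2 of both groups, at 27.6, 63.7 and 27.6 FPKM with vector and 44.8, 73.5 and 37.8 FPKM with circ_0005358. CXADR was at 2.46, 10.8 and 2.63 FPKM with vector and 7.92, 7.51 and 6.30 FPKM with circ_0005358. Without vector replicate 2 its log2 fold change was 1.21 (adjusted p = 0.0148). Without vector replicate 1 or 3 it was 0.33 and 0.36 (adjusted p = 0.757 and 0.733). The libraries left out for CSTB and CXADR were singled out after their values were seen, so nothing is read from those passes. BACH1, on a row joined with LINC00189, was at 1.71 to 5.77 FPKM with vector and 1.998 to 5.09 FPKM with circ_0005358. UBE2G2, a conjugating enzyme of the endoplasmic reticulum, was at 4.85 to 9.99 FPKM and 9.45 to 13.7 FPKM. The library that stood apart differed from gene to gene, as the plot of these rows shows.

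**Figure D4:**
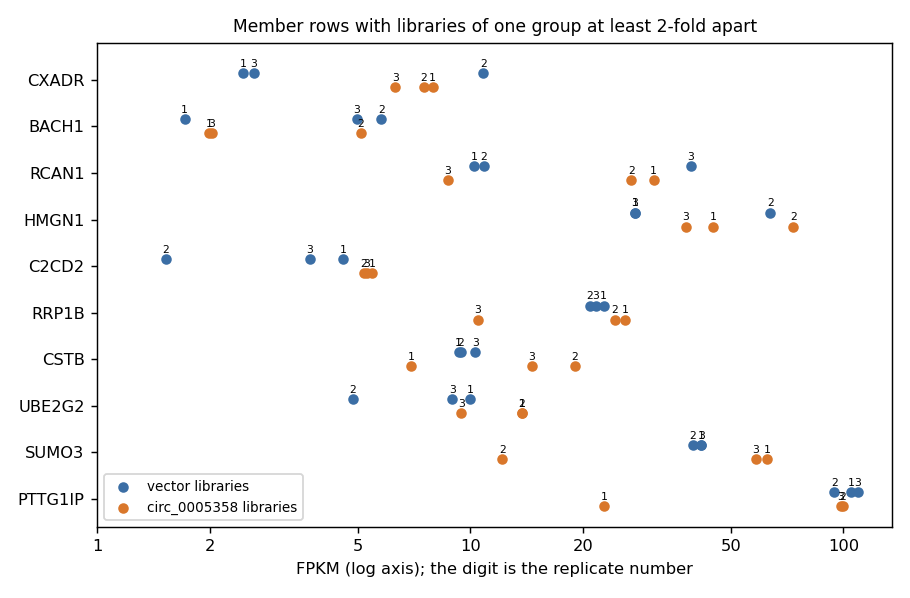
Level in FPKM (log axis) of the 10 member rows whose libraries differed at least 2-fold within a group, 1 gene per line, with the replicate number printed at each point. The point that stands apart is circ_0005358 replicate 2 for SUMO3 (12.2 FPKM), replicate 1 for PTTG1IP (22.8 FPKM) and replicate 3 for RRP1B (10.5 FPKM), and vector replicate 2 for CXADR (10.8 FPKM).

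Neighbours on opposite strands allow pairs to be set side by side. GART and SON start close together and read away from each other, and in GENCODE 29 their first parts overlap by 874 bases. GART rose (0.32) and SON was higher in all 3 circ_0005358 libraries without passing (0.21). PIGP and TTC3 start 56 bases apart in GENCODE 29, and neither passed (0.05 and 0.17). The stretch between the RefSeq starts is printed for these 2 pairs, on the plus strand of GRCh38.p14, to show what each pair shares. For GART and SON (chr21:33542890-33543037, 148 bases) the capitals mark 3 matches to CCAAT, a motif added after this sequence was seen. For PIGP and TTC3 (chr21:37073072-37073253, 182 bases) they mark a GC box, GGGCGGG, and an E-box, CACGTG.
GART and SON: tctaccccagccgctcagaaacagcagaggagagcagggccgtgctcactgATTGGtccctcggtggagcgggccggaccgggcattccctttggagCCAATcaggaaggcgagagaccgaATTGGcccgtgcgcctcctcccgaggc
PIGP and TTC3: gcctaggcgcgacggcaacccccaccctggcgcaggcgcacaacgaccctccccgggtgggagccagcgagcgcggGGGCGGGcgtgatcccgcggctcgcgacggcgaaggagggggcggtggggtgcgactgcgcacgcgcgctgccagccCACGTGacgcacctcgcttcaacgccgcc
The RefSeq starts differ from those of GENCODE, so the printed stretches differ in length from the distances above.

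The promoter table of RefSeq held 49 of the 60 genes, with 79 start sites, each read as the 250 bases before the start on both strands. Their median GC content was 69.2%, against 58% over all 35116 windows of the table. GC boxes (GGGCGGG) were in 51.9% of the member windows and 31.5% of all windows, and ETS cores (CCGGAAG) in 16.5% and 8.52%. Antioxidant response cores (TGACNNNGC) were in 8.86% of member windows and 10.9% of all. The palindromic NRF1 site was in 2.53% and 1.03%, E-boxes (CACGTG) in 8.86% and 6.34%, cyclic AMP elements (TGACGTCA) in 1.27% and 1.65%, TATAAA in 11.4% and 10.7%, and CCAAT in 29.1% and 32.0%. Of the 11 called genes 9 have a window, and all 9 hold a GC box, as do 36 of all 49 member genes with a window, while 3 hold an antioxidant response core (CBR1, NRIP1 and PFKL). Starts of 1 gene can overlap, so windows are not independent. All windows of the table were counted whatever the level of their gene in these cells, while nearly all members passed the filter on level. The comparison was matched for neither level nor GC content, so a difference cannot be read as particular to these members or to the called genes.

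The rest of chromosome 21 had values like those of the members. Over the 67 other tested rows the median log2 fold change was 0.20, with 51 above 0, 11 risen (16.4%; 6.41% of all tested rows) and 2 fallen (2.99%; 4.96% of all). The 11 count CBS and its near-identical copy CBSL as separate rows, whose reads may be the same. The 67 also count U2AF1 and U2AF1L5, and SMIM11A and SMIM11B, as separate rows, and their reads may be shared likewise. Of the calls, AP001062.1 (risen) and CR381653.2 (fallen) passed the filter only through the group where they are high. The filter fixed their direction, so nothing is read from these 2. The number called fell from 13 to 3, 4 and 7 with vector replicate 1, 2 or 3 left out, and to 6 and 5 when circ_0005358 replicate 2 or 3 was. With no filter on low values the median of the non-member rows was -0.0048, and that of the member rows was 0.21. Of a list of other chromosome 21 genes 38 were tested on rows of their own, and 7 rose and 1 fell (median 0.23). ADAMTS1, a secreted metalloprotease, rose most clearly, from 7.04, 6.29 and 5.87 FPKM to 15.6, 14.95 and 14.4 FPKM (1.11, limma adjusted p = 0.00132). CBS, which makes cystathionine from homocysteine, went from 5.86 ± 0.0804 to 9.82 ± 0.539 FPKM (SD, n = 3 each; adjusted p = 0.00307), a value that is uncertain because of CBSL. RRP1, a paralog of RRP1B, went from 5.63 to 7.98 FPKM (adjusted p = 0.0113) and ADARB1, an RNA-editing deaminase, from 6.35 to 8.36 FPKM (adjusted p = 0.024). RIPK4, a kinase of epidermal differentiation, named after its values were seen, fell from 18.3 to 5.92 FPKM (-1.57, adjusted p = 0.0397).

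Among 23 chromosomes (1 to 22 and X), chromosome 21 had the highest median log2 fold change, at 0.21 over 123 tested rows. Chromosome 9 (0.19), chromosome 15 (0.16) and chromosome 8 (0.14) came next, and chromosome 4 (-0.07) was lowest, so chromosome 21 was not alone in standing above 0. The share of rows that rose was 17.1% on chromosome 21, 15.9% on chromosome 9 and 16.4% on chromosome 15. The order of the first places depended on the processing: chromosome 9 was ahead with a level of at least 5 FPKM required (0.2246 against 0.2236) and without circ_0005358 replicate 2 (0.1992 against 0.1857). With no filter, where every row above 0 in any library is tested, the median of chromosome 21 was 0.002. That was still the highest of the 23, and the member median was 0.21. Chromosome medians and base composition were set side by side, with a Spearman correlation of 0.508 and a Pearson correlation of 0.36 between median log2 fold change and median transcript GC content over the 23 chromosomes, which share the same 6 libraries. Chromosome 19, with a median GC content of 59.1%, had a median of 0.08, and chromosome 21 stood at 50.5%. The part of GC content in the chromosome medians was not tested beyond the bins given above.

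**Figure D5:**
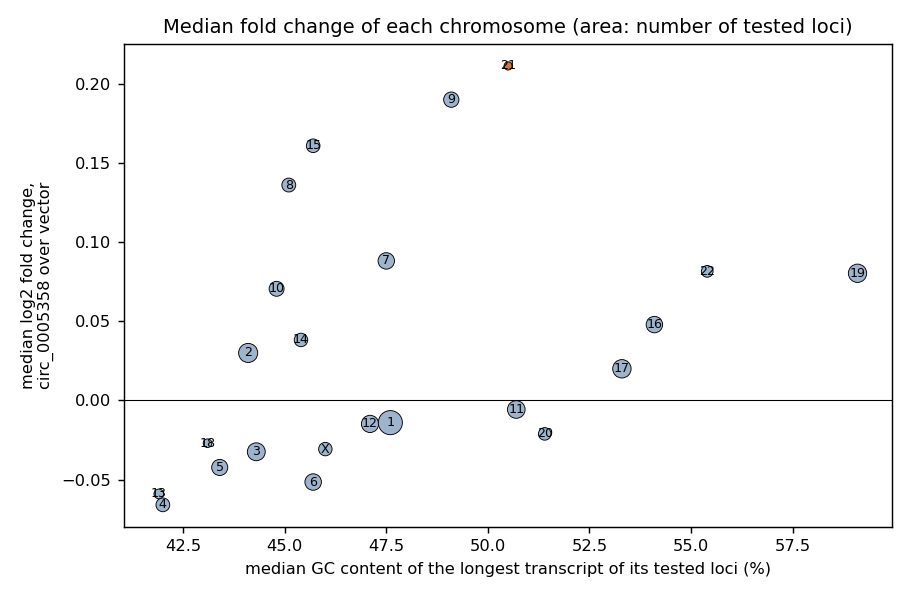
Median log2 fold change of circ_0005358 over vector for the tested rows of each of 23 chromosomes (vertical axis) against the median GC content of their longest transcripts in percent (horizontal axis), with circle area showing the number of tested rows. Chromosome 21 is highest at 0.21 with 50.5% GC, followed by chromosome 9 at 0.19, and chromosome 4 is lowest at -0.07.

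Partners of the members on other chromosomes were read in 10 lists, 65 genes tested in all, of which 4 rose and 2 fell, with a median log2 fold change of 0.04. Their share of 9.23% past the threshold was near the 11.4% of all tested rows, so the calls named next are single genes and say nothing of their lists. The count of 6 dropped to 3 without vector replicate 1, 2 or 3, or circ_0005358 replicate 2. For purine synthesis, the pathway of GART, 2 of 7 rose and 2 fell (median 0.13). PAICS, which acts directly after the last reaction of GART, rose from 41.7 to 52.7 FPKM (adjusted p = 0.0245) and IMPDH1, which commits the product to guanine nucleotides, from 10.2 to 15.4 FPKM (adjusted p = 0.00861), while ATIC, which completes the purine ring, fell from 20.7 to 13.1 FPKM (adjusted p = 0.00412) and IMPDH2, the paralog of IMPDH1, from 38.9 to 33.4 FPKM (adjusted p = 0.0407). Of 11 genes for APP processing 1 rose, APH1B, a gamma-secretase subunit, from 2.09 to 4.85 FPKM (0.92, adjusted p = 0.0022), with a list median of -0.06. CHAF1A, the partner of CHAF1B, rose from 8.55 to 10.9 FPKM (adjusted p = 0.0401) and was the riser among 5 chromatin assembly genes (median 0.01).

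The remaining 7 lists had 0 calls by limma at the adjusted threshold, which 11.4% of all tested rows passed. Of their 42 genes 7 had an unadjusted p under 0.05. The share of all tested rows under that unadjusted p is not given here, so nothing is read from this count. They were 9 tested interferon receptor partners (median 0.09), 7 calcineurin and NFAT genes (0.04), 7 other CCT chaperonin subunits (0.01), 7 superoxide and peroxide enzymes (-0.02), 3 RUNX partners (0.39), 3 proteasome assembly factors (0.11) and 6 SUMO genes (0.04). The CCT subunits kept within -0.07 and 0.07, as CCT8 did at 0.04.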

How the data were processed

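PolyA RNA of 3 vector and 3 circ_0005358 libraries was read from 1 table of FPKM values deposited by the authors. Trimmomatic, HISAT2 and the build hg19 appear, without versions, in the submitters' processing notes. Not given in the sources used here are the FPKM program, its annotation and whether it used strand. The table holds no coordinates, and positions are from GENCODE 29 (GRCh38), in which 99.9% of the transcript identifiers were found. Of the loci, 16797 carry identifiers of transcripts assembled from reads.

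The members, lists and roles were chosen with earlier results of these data known. The 10295 rows that reached 1 FPKM in 3 or more of the 6 libraries were fitted with limma (version 3.58.1, R 4.3.3) after a log2(FPKM + 1) transform. Moderated tests used a variance trend and were two-sided. Benjamini-Hochberg adjustment ran over all these rows, with a threshold of 0.05, and every adjusted p is from this fit or its alternatives. Fold changes on this scale understate the change of low genes. Depth was estimated from the value of 1 fragment on single-transcript loci, so no counting interval was drawn. The fit was tested on simulated data with known changes.

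Members past the threshold are given in full, others by range and count, with every library's value where groups do not overlap and the log2 fold change is at least 0.3 in size, and at the ends of the stretches. Of other lists at most 4 genes past the threshold are named, by smallest p. Other members with per-library values, such as GABPA, BTG3, SON and MCM3AP, and the members with libraries far apart were given values after these were seen. Alternatives were the pseudocounts 0.1 and 0.5, other filters, scalings and variance models, a replicate block, and libraries left out. Where an uncalled member is said to pass without a library, that library was singled out after the values were seen, so nothing is read from the pass. Promoter windows are from RefSeq (GRCh38.p14). Enrichment of the members was not tested.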

Additional observations from a re-analysis of the deposited data

How the results depend on the processing

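The replicate block, with the replicate number as a term, left 259 of 1171 calls over all rows, 1 of the 11 member calls (PFKL), 2 of 13 among the other chromosome 21 rows and 2 of 6 in the partner lists. Same-numbered libraries correlated at 0.0644, 0.0481 and 0.0781 in their deviations from the group means, each the highest for its libraries but under 0.1, so the numbers were not taken to pair them. With no filter on low values these counts were 591, 6, 5 and 3, with more rows tested. Without vector replicate 3 and circ_0005358 replicate 2 together, chosen after the data were seen, they were 198, 1, 1 and 1. With any 1 library left out they ranged from 485 to 761, 2 to 9, 3 to 9 and 3 to 4, with fewer libraries in each fit.

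The member median of 0.21 was 0.17 with quantile normalization, 0.28 without that pair of libraries and 0.20 to 0.22 with any 1 library left out. From SCAF4 to RUNX1 the median was 0.20 with quantile normalization, 0.31 without the pair and 0.20 to 0.34 with 1 library left out. From SETD4 to BACE2 it was 0.19 at FPKM of at least 5, 0.20 without the pair and 0.0869 to 0.18 with 1 left out, and from C2CD2 to PRMT2 it was 0.25 to 0.35 with 1 left out. For the other chromosome 21 rows it was 0.25 with a pseudocount of 0.1, 0.25 at FPKM of at least 5, -0.0048 with no filter and 0.19 to 0.25 with 1 left out. The cause of these shifts was not tested.

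Of 56 member rows 10 changed sign in some setting, 0 of them called. With 1 library left out, APP ranged from -0.0092 to 0.16, USP16 from -0.0002 to 0.12, RCAN1 from -0.0855 to 0.83, SETD4 from -0.0076 to 0.19, CBR3 from -0.0232 to 0.18, DYRK1A from -0.13 to 0.10, ZBTB21 from -0.19 to 0.0282, RRP1B from -0.42 to 0.20 and SUMO3 from -0.58 to 0.55. USP16 was -0.0029 with quantile normalization, and DYRK1A was -0.0304 with the same sum, -0.0438 with quantile normalization and -0.0159 with median centring. Without the pair of libraries APP was -0.0289, SETD4 0.26, HMGN1 -0.03, ZBTB21 0.0185 and SUMO3 0.5633. FPKM carries no read counts, so the precision of low rows is not known.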
